A study of Mus musculus with 6 samples.

Results

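Chromosome 13 of the mouse carries, in 1 bin of about 1 Mb, the neighbouring genes *Naip1*, *Naip2*, *Naip5*, *Naip6*, *Smn1*, *Serf1*, *Ocln* and *Gtf2h2*. The contacts of that bin were examined in the authors' deposited table of differential interactions between MommeD43 and WT neural stem cells (NSCs). A row of the table, termed an interaction, is a pair of bins whose number of Hi-C read pairs differed between the genotypes at a false discovery rate (FDR) below 0.1. Rows were taken where the genes listed for either bin include any of the 8 genes, and all 8 genes fell in the same bin. This gave 8 of the 61 interactions of the table. They were therefore chosen by measured values, since a bin pair is in the table only because its difference between genotypes passed the FDR limit, and the fold changes, F statistics and FDR values below are a description without a further test.

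In situ Hi-C joins DNA ends that lie close together in fixed nuclei and counts the joined pairs by sequencing. The 6 libraries came from 2 genotypes, with 3 independent cell lines each, derived from cortices of female C57BL/6J embryos at embryonic day 14.5 and used at fewer than 10 passages. In both genotypes the endogenous SMCHD1 protein is fused to GFP, so the control is Smchd1GFP+/+ (WT) rather than an untagged line, and the other group, Smchd1GFPMommeD43/MommeD43 (MommeD43), is in addition homozygous for the *MommeD43* missense mutation of *Smchd1*. Chromatin was fixed in 1% formaldehyde and cut with MboI, which cuts at GATC. The table has 0 columns for single libraries, so values per cell line, their spread and the depth of each library are unknown here, and no cell type marker can be examined in it.

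SMCHD1 is a chromatin protein of the structural maintenance of chromosomes family, known for its part in X inactivation and in silencing of some autosomal gene clusters. The *Naip* genes encode cytosolic receptors of innate immunity. Their proteins bind flagellin or parts of bacterial type III secretion systems and then engage NLRC4 to form an inflammasome. *Smn1* encodes the survival motor neuron protein, which assembles the small nuclear ribonucleoproteins of the spliceosome, and the corresponding human region, which carries *SMN1*, *NAIP*, *SERF1A* and *GTF2H2*, is duplicated and unstable and is altered in spinal muscular atrophy. *Ocln* encodes occludin of tight junctions, *Gtf2h2* a subunit of the transcription and DNA repair factor TFIIH, and *Serf1* a small protein that affects protein aggregation.

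The bin, called here the *Naip* and *Smn1* bin, covers chr13:100000155-100999677 of GRCm38, or 999523 bp. Like the 16 chromosome 13 bins of the table, of which it is 1, it starts and ends at an MboI site, so the bin is a stretch of whole restriction fragments. Its first and last sites are shown because they set what was counted as this locus, together with the first sites of the partner bin with the strongest statistic and of the partner bin that holds a zinc finger gene cluster. Each is 64 bases of the plus strand of GRCm38, with the GATC of MboI in capitals.
Naip and Smn1 bin, first site, chr13:100000125-100000188: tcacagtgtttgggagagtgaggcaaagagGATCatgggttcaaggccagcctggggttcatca
Naip and Smn1 bin, last site, chr13:100999644-100999707: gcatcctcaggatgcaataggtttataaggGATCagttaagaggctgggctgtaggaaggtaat
Partner bin with Ctsl, first site, chr13:63999690-63999753: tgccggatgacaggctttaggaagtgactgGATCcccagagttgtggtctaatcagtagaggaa
Partner bin with zinc finger genes, first site, chr13:67000145-67000208: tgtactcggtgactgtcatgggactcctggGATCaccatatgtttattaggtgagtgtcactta

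The file lists 20 genes for the bin, and all 20 were found by symbol in the RefSeq annotation of GRCm38.p6. The 8 genes of the rule lie within 445 kb, from 100108019 to 100552718. *Serf1* (100108019 to 100114233) and *Smn1* (100123205 to 100137699) come first and are on the plus strand. The 4 *Naip* genes follow on the minus strand. *Naip2* covers 100144063 to 100202122, *Naip5* 100211735 to 100250930, *Naip6* 100281121 to 100316616 and *Naip1* 100407770 to 100452864. The pseudogenes *Naip3-ps1* and *Naip3* lie among them, and the file lists neither. *Gtf2h2* (100460218 to 100492609) and *Ocln* (100496504 to 100552718) close the row, also on the minus strand. A further 12 listed genes share the bin, among them *Cdk7* and *Ccnb1*, a kinase and a cyclin of the cell cycle, *Bdp1*, a subunit of the RNA polymerase III factor TFIIIB, and *Rad17*, of the DNA damage checkpoint. An interaction of the bin is thus a value for all of its genes together, and the contact of any single gene was not resolved.

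The *Naip* genes are related in sequence and share stretches of identical bases, which bears on Hi-C because a read of 75 bases can be placed only where its sequence occurs once. Counted as words of 75 bases on either strand, 17.4% of the words between 100144063 and 100452864, the 309 kb from *Naip2* to *Naip1*, had another copy in the bin, against 1.92% in the rest of the bin. This stretch is 30.9% of the bin and held 80.2% of its copied words. Among the genes of the rule the share was 25.2% in *Naip5*, 10.8% in *Naip6*, 6.78% in *Naip1* and 3.40% in *Naip2*. It was 0% in *Smn1*, 0.147% in *Serf1*, 0.0557% in *Gtf2h2* and 0.606% in *Ocln*. The copied sequence was therefore concentrated in the *Naip* genes and their pseudogenes, and the other members of the rule were almost entirely unique within the bin.

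**Figure D1:**
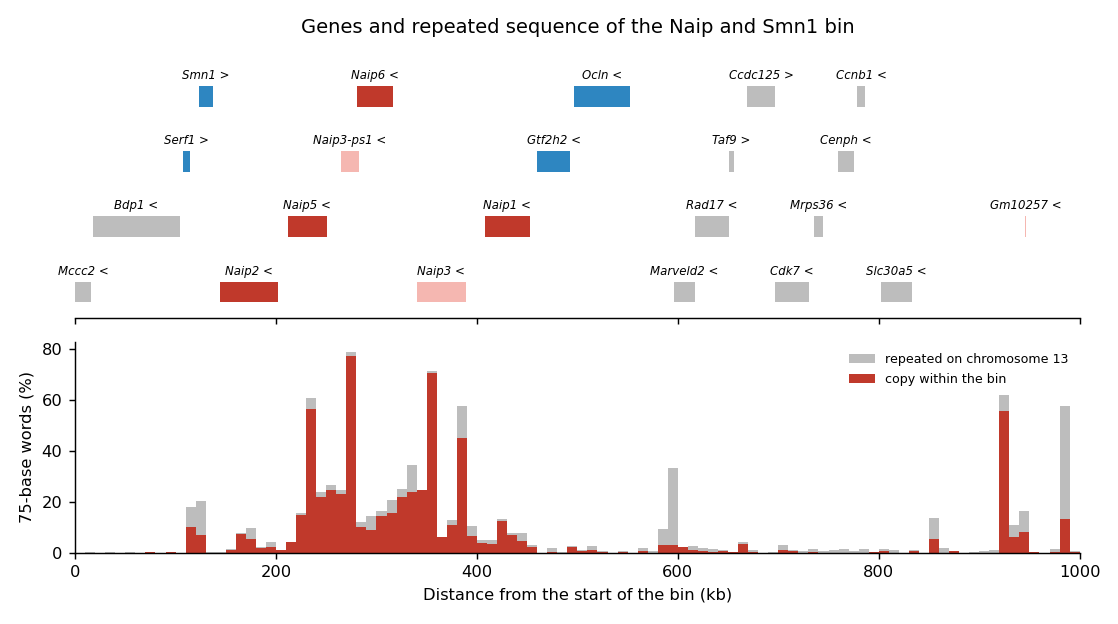
The upper panel shows the genes of the *Naip* and *Smn1* bin by distance from its start (kb), with *Naip* genes in red, the other genes of the rule in blue, *Naip* pseudogenes in pink, other listed genes in grey and the strand as an arrowhead (the rows only keep names apart). The lower panel gives, in windows of 10 kb, the percentage of 75-base words that occur again on chromosome 13 (grey) and those with the other copy inside the bin (red, drawn in front), and the 3 tallest red bars stand in the *Naip* stretch, which holds 80.2% of the copied words, with another of 55.8% outside it, 920 kb from the start.

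Among the *Naip* genes of the rule the longest run of identical bases was 399 bases. It was shared by introns of *Naip5* (100227835 to 100228233) and *Naip6* (100301540 to 100301938), which lie 73.7 kb apart. Runs that involve the pseudogenes were longer, with 932 bases between *Naip5* and *Naip3* and 1135 between *Naip3-ps1* and *Naip3*. Between *Naip1* and *Naip2* the longest run was 175 bases and lay wholly in coding exons of both genes. It is printed as an example of sequence to which a single read cannot be assigned, even though it holds an MboI site, in capitals. It reads on the plus strand of GRCm38, while both genes are on the minus strand.
Naip1 chr13:100425454-100425628 and Naip2 chr13:100160193-100160367: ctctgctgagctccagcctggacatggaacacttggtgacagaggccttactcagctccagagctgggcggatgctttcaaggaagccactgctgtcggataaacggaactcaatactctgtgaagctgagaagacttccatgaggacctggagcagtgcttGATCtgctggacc

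To ask where contacts of this locus differed in MommeD43 cells, the 8 interactions were read from the authors' deposited values. All 8 were strengthened, which means more normalized read pairs in MommeD43 than in WT. Over all 138553 bin pairs tested, 0.044% were called in either direction and 0.0339% were called as strengthened. Because the calls chose the members, nothing is read from the count of 8 against these shares. The 8 partner bins all lay on chromosome 13, proximal to the locus (towards the centromere), at 24.0 to 43.0 Mb (median 31.0 Mb) between bin starts. The log2 fold changes ran from 0.50 to 0.78 with a median of 0.54, and their approximate standard errors (SE, the fold change divided by the square root of F) from 0.104 to 0.146. Average abundances were −0.02 to 1.35 log2 CPM (read pairs scaled to library totals, averaged over all libraries), which corresponds to 0.984 to 2.55 CPM.

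The farthest partner, chr13:56999794-57999675, was 43.0 Mb away. The only gene listed for it is *Spock1*, which encodes testican, a secreted proteoglycan prominent in brain. In the authors' deposited table its log2 fold change was 0.73 (SE 0.140, 95% interval 0.45 to 1.01), a ratio of 1.66, at 0.23 log2 CPM with F = 27.4 and FDR 0.0469.

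The partner with the highest F statistic was chr13:63999720-65000156, at 36 Mb. Its 12 listed genes include *Ctsl*, which encodes the lysosomal protease cathepsin L, the phosphatase gene *Cdc14b*, the kinase gene *Cdk20*, *Hsd17b3*, which encodes an enzyme of testosterone synthesis, and 1 zinc finger gene, *Zfp367*. The deposited log2 fold change was 0.78 (SE 0.134, 95% interval 0.51 to 1.04), a ratio of 1.71, at 0.61 log2 CPM with F = 33.7. Its FDR was 0.0191, and the lowest FDR among strengthened interactions without the *Naip* and *Smn1* bin was 0.0303. With weakened interactions included, it ranked 4 of 61 by F. The highest F, 58.8, was that of a weakened interaction within chr13:94999721-95999718 (log2 fold change −0.32, FDR 0.000106).

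The next partners touch each other. The bin chr13:67000175-67999933, at 33 Mb, lists 31 genes. Of these, 25 have a symbol of the zinc finger list (*Zfp* or *Rslcan*), from *Rslcan18* to *Zfp953* in order of symbol, including the opposite-strand transcript *Zfp85os*. *Rsl1*, which encodes a zinc finger repressor of male-specific liver genes, is in the bin but not in that count. Most zinc finger genes of this kind encode DNA-binding proteins with a KRAB domain, which recruits silencing factors. Its log2 fold change as deposited was 0.54 (SE 0.114, 95% interval 0.31 to 0.77) at 0.82 log2 CPM, with F = 22.2 and FDR 0.0771. The adjoining bin chr13:67999930-68999867, at 32 Mb, has 6 listed genes, among them *Mtrr*, which encodes the reductase that keeps methionine synthase active, *Adcy2*, an adenylate cyclase gene, and *Fastkd3*, whose product acts on mitochondrial RNA. It had the lowest abundance of the 8, at −0.02 log2 CPM, and a deposited log2 fold change of 0.73 (SE 0.146, 95% interval 0.44 to 1.03), with F = 25.3 and FDR 0.0529.

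Another pair of touching bins followed at 30 and 29 Mb. The bin chr13:69999941-71000152 lists *Ice1*, a gene for a component of the complex that transcribes small nuclear RNA genes, *Adamts16*, a secreted metalloprotease gene, and 4 further transcripts. Its log2 fold change in the deposited table was 0.54 (SE 0.111, 95% interval 0.32 to 0.76) at 0.96 log2 CPM, with F = 23.5 and FDR 0.0666. The bin chr13:71000149-71999897 lists only *Irx1*, an Iroquois homeobox gene of developmental patterning. Its deposited log2 fold change was 0.54 (SE 0.118, 95% interval 0.31 to 0.78) at 0.70 log2 CPM. With F = 21.2 and FDR 0.0925 this was the member nearest to the limit of the table, whose highest FDR was 0.0995. Pairs just beyond the limit are not in the table used here.

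The nearest partners, again a touching pair, lay at 25.0 and 24.0 Mb. The bin chr13:75000495-76000149 has 6 listed genes, including *Pcsk1*, a prohormone convertase gene, *Ell2*, which encodes an elongation factor of RNA polymerase II, and *Glrx*, which encodes glutaredoxin. In the authors' deposited table it had a log2 fold change of 0.54 (SE 0.104, 95% interval 0.33 to 0.75) at 1.06 log2 CPM, with F = 26.7 and FDR 0.0482. The bin chr13:76000146-77000146 lists 6 genes, including *Mctp1*, a gene for a calcium-binding membrane protein, *Ttc37*, of the SKI complex of RNA decay, and the sulfatase gene *Arsk*. It had the smallest deposited log2 fold change, 0.50 (SE 0.107, 95% interval 0.29 to 0.72), and the highest abundance, 1.35 log2 CPM, with F = 22.1 and FDR 0.0785.

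**Figure D2:**
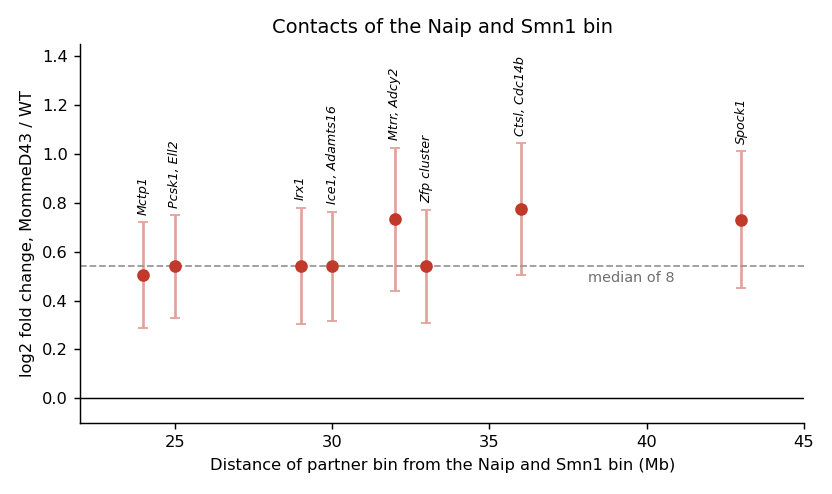
The log2 fold change of the 8 interactions (MommeD43 over WT, points) with the approximate 95% interval from F (bars) is plotted against the distance of the partner bin (Mb), with some genes of each partner bin named. The dashed line is the median of 0.54, which lies inside all 8 intervals.

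The interactions fell into 2 levels by size. The partners with *Spock1*, with *Ctsl* and with *Mtrr* had log2 fold changes of 0.73 to 0.78, and the other 5 had 0.50 to 0.54. These levels were not separated by their errors. In all 28 pairs among the 8 interactions the 95% intervals overlapped, and the largest difference was 0.27. The interactions share the libraries and a bin, so the intervals are not independent of each other. Across the 8 interactions the log2 fold change was lower where the abundance was higher (Pearson's r = −0.81, Spearman's rho = −0.86) and higher at a longer distance (r = 0.76, rho = 0.64), while abundance fell with distance (r = −0.71). The same held across the 39 strengthened interactions of other bins (r = −0.90 with abundance and 0.96 with distance). These are descriptions across bin pairs of the same libraries that all passed the same FDR limit. A bin pair with a larger SE passes that limit only with a larger fold change. Such trends can therefore follow from the choice of rows, in the 8 as in the 39, and no link with abundance or distance is read from them.

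On chromosome 13 the 8 partner bins stood in 5 runs of touching bins within a stretch of 20 bins, and the 12 other bins of that stretch had no interaction with the locus in the table. For 7 of the 8 partner bins the only interaction in the table was that with the *Naip* and *Smn1* bin, and there were 0 interactions between any of the partner bins. The exception was the zinc finger bin. It was also strengthened with chr13:60000755-61000123, 7 Mb away (log2 fold change 0.40, 2.21 log2 CPM, F = 22.7), a bin that lists *Gas1* and *Dapk1*, and with chr13:10999495-12000063, 56.0 Mb away (0.66, 0.02 log2 CPM, F = 22.4), which lists *Ryr2*. Of the 10 strengthened interactions of chromosome 13, 8 were the members, chosen by the rule, and 1 of these joined the *Naip* and *Smn1* bin to the zinc finger bin. The other 2 were those of the zinc finger bin just given.

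The sides of the locus differ in what could be seen. Only 20.4 Mb of chromosome lie distal to the start of the bin, so no bin at 24.0 Mb or more exists on that side, and 96 bins lie proximally against 19 distally. No pair of the *Naip* and *Smn1* bin with itself or with a bin nearer than 24.0 Mb is in the table. Interactions of the region just proximal to it went the other way. Of the 5 weakened interactions of chromosome 13, 4 had both bins within 6 Mb proximal of the locus. The nearest was within the adjoining bin chr13:98999960-100000158, at a log2 fold change of −0.21 (SE 0.0403, 7.72 log2 CPM, F = 27.6, FDR 0.0469). That bin ends at the MboI site where the *Naip* and *Smn1* bin begins, and *Mccc2*, which encodes a subunit of methylcrotonyl-CoA carboxylase, is listed for both.

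**Figure D3:**
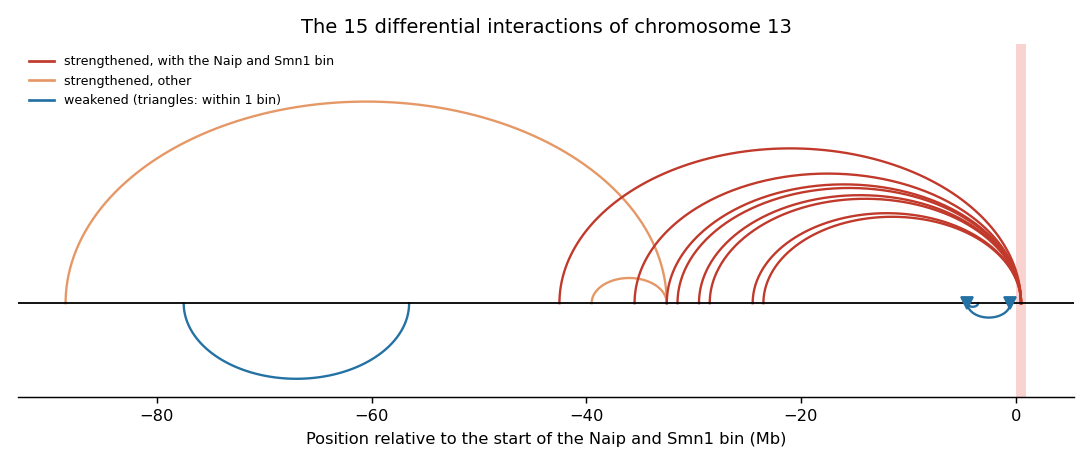
Arcs join the bins of the 15 differential interactions of chromosome 13, by position relative to the start of the *Naip* and *Smn1* bin (Mb, shaded), with strengthened interactions above the line and weakened ones below, and arc height set by distance alone. The 8 red arcs of the *Naip* and *Smn1* bin all reach proximally, and 4 of the 5 weakened interactions lie within 6 Mb of it.

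Against the rest of the table the locus was set only as a description, since all rows were chosen by the same contrast. A bin with as many interactions occurs once more, on the X chromosome (chrX:103999836-105000271). Its 8 interactions were also all strengthened, with a median log2 fold change of 0.67 (0.49 to 0.77) against 0.54 (0.50 to 0.78) for the *Naip* and *Smn1* bin, and with median abundances of 0.39 and 0.76 log2 CPM. Their median distance was 57.5 Mb against 31.0 Mb. The ranges of fold change overlapped almost fully.

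Among autosomes, 16 of 30 interactions were strengthened, and 8 of these 16 belonged to the *Naip* and *Smn1* bin. The other 8 had a median log2 fold change of 0.34 at 4.0 log2 CPM and a median distance of 4 Mb (0 to 80.0 Mb). Most were shorter and more abundant contacts, at 0 to 7 Mb. The rest spanned more than any member. They lay at 56.0 Mb on chromosome 13 (log2 fold change 0.66), 66.0 Mb on chromosome 8 (0.80) and 80.0 Mb on chromosome 3 (0.94). In the distance range of the members the table held 5 other interactions, of which 3 were on the X chromosome and strengthened (median 0.53) and 2 were autosomal and weakened (−0.78 and −0.64). In the abundance range of the members there were 22 other strengthened interactions, 21 of them on the X chromosome, with a median log2 fold change of 0.67 and a median distance of 60.0 Mb, and 4 weakened interactions, all autosomal (−0.82 to −0.64). These rows were taken for the members' own distance or abundance, so their likeness to the members in that measure is set by the choice.

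**Figure D4:**
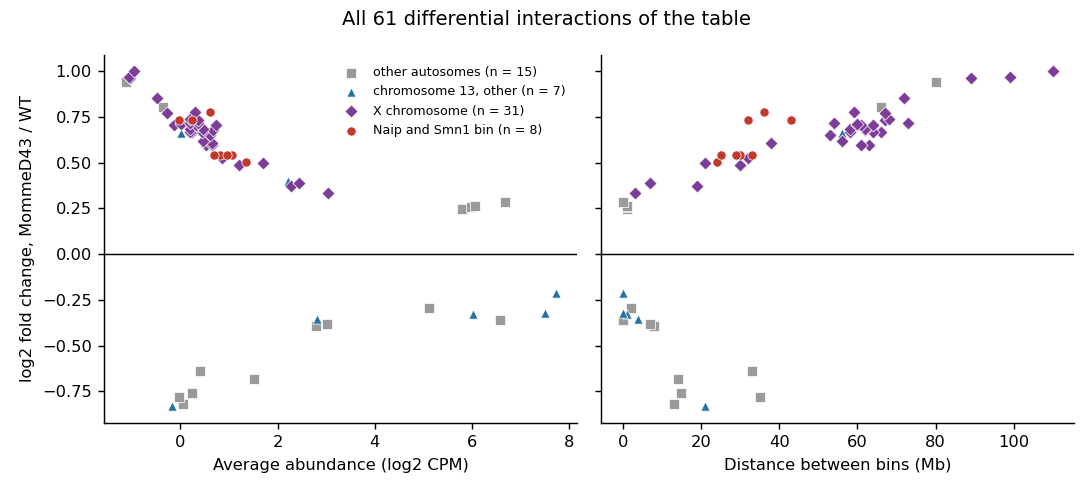
The log2 fold change (MommeD43 over WT) of all 61 interactions is plotted against average abundance (log2 CPM, left) and distance between bins (Mb, right), with the 8 interactions of the *Naip* and *Smn1* bin as red circles. The red circles lie among the X chromosome interactions (purple diamonds) by abundance. Within their own distance range, 24.0 to 43.0 Mb, they are the only strengthened autosomal interactions. Other strengthened autosomal interactions lie at shorter distances and at 56.0 to 80.0 Mb.

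What the partner bins share in sequence was compared over the 116 bins of chromosome 13, rebuilt from MboI sites of GRCm38. All 16 bins of this chromosome in the table were recovered exactly. The *Naip* and *Smn1* bin had 42.6% GC (rank 43 of 116, from the highest), 2636 MboI sites (rank 20) and 20 protein-coding genes (rank 7). Repeated 75-base words made up 9.06% of it on chromosome 13 (rank 16) and 11.0% over the genome. It was thus rich in genes and above most bins in repeats, but other bins exceeded it in each measure.

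The 8 partner bins had a median of 42.1% GC (39.2 to 45.5%) and 2570 MboI sites (2345 to 2686). The 12 other bins of the same stretch had medians of 43.7% GC and 2552.5 sites. In the 107 bins of the chromosome that are no partner, the medians were 41.4% GC and 2453 sites. The GC content of partner bins was thus lower than the 1st median and higher than the 2nd. Partner bins held a median of 4.5 protein-coding genes (1 to 27), against 11 in the 12 other bins and 5 in the 107 bins of the chromosome that are no partner. Repeated words of the partner bins had a median of 5.09% (1.35 to 19.4%). The median was 5.35% (1.5 to 58.2%) in the 12 other bins and 4.20% (0.839 to 58.2%) in the 107 bins. The ranges of partner and other bins overlapped in each of these measures.

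Sequence held in common between the *Naip* and *Smn1* bin and its partners was also near the level of the chromosome. Of the words of the *Naip* and *Smn1* bin, 0.263 to 1.27% (median 0.981%) occurred in a given partner bin, against a median of 0.951% for the 12 other bins of the stretch and 0.942% for the 107 bins of the chromosome that are no partner. The lowest share, 0.263%, was that of the bin with *Spock1*, and the bin with *Ctsl*, which had the highest F, shared 1.05%. Whether ambiguous reads entered the counts was not tested.

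**Figure D5:**
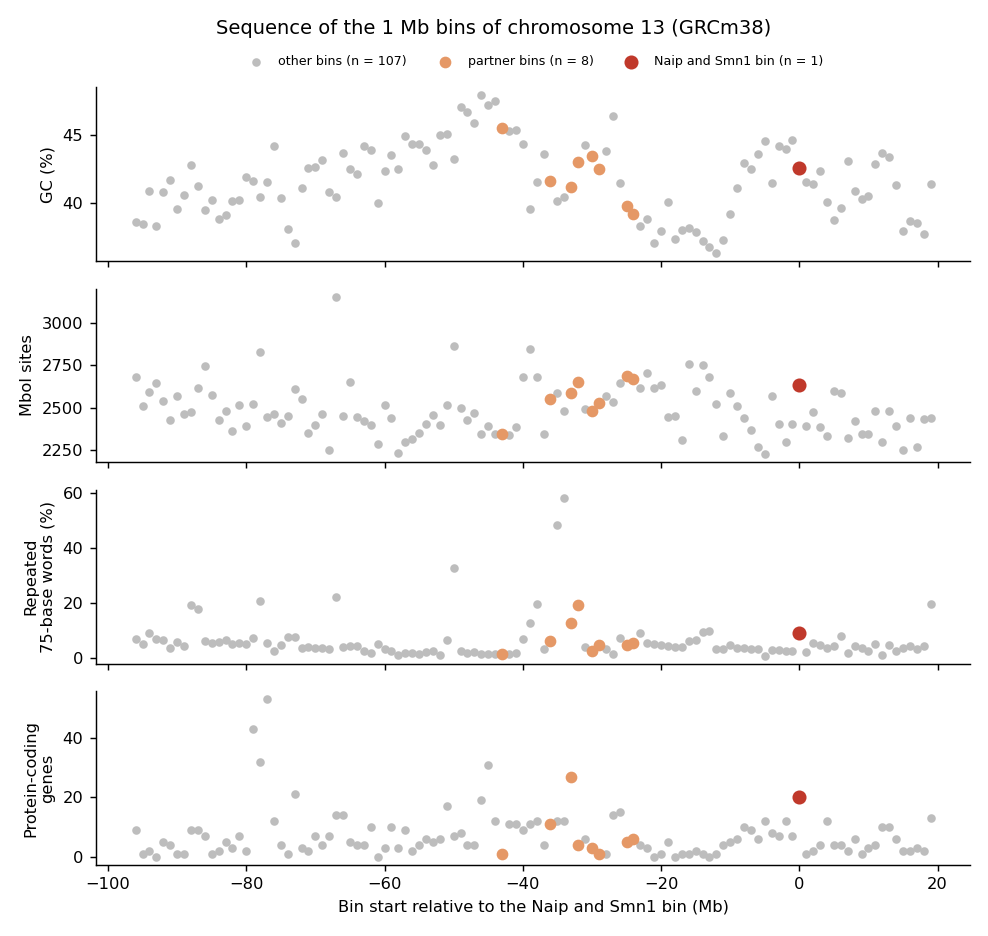
Each point is a 1 Mb bin of chromosome 13, placed by its distance from the *Naip* and *Smn1* bin (Mb), with its GC content (%), number of MboI sites, percentage of repeated 75-base words and number of protein-coding genes from top to bottom. The *Naip* and *Smn1* bin (red) and its 8 partner bins (orange) lie within the range of the 107 other bins (grey) in all 4 panels.

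Genes that act with the members were looked up in the bins of the table, which holds positions but no expression values. The 72 bins overlap 526 of 21887 protein-coding genes of RefSeq (2.40%), so few genes of any short list would lie in them, and *Gtf2h2*, *Ocln* and *Smn1* are in the *Naip* and *Smn1* bin by the rule itself. The counts are therefore given as positions only. Of the 10 genes of the TFIIH list, *Gtf2h2* and *Cdk7*, the kinase of the complex, were in the *Naip* and *Smn1* bin, and none was in another bin of the table. Of the tight junction list, *Ocln* and *Marveld2*, which encodes tricellulin, were in the bin and none elsewhere. Of the 9 genes of the SMN complex list, *Smn1* was in the bin and *Gemin8* in a bin on the X chromosome. None of the 6 NLRC4 inflammasome genes, which act downstream of the NAIP proteins, was in any bin of the table, and at 2.40% of all genes this count says nothing particular about them. Symbols of the zinc finger list occurred in 2 of the 8 partner bins (26 symbols, 25 of them in 1 bin). They also occurred in 4 of the 63 bins that are neither a partner nor the locus (5 symbols). The share of such symbols over all bins of the genome was not counted, so nothing is read from these counts.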

How the data were processed

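In situ Hi-C of 3 MommeD43 and 3 WT lines was sequenced as read pairs of 75 bases. The authors used HiCUP to map them to mm10, counted the pairs by 1 Mb bins, removed pairs of low abundance, normalized by LOESS and tested genotypes with the edgeR quasi-likelihood F test within diffHic. The deposited fold changes and abundances are log2 values. The authors' F statistic, deposited with no fixed range, has the unit score here and was used as the test statistic behind the SE. Unadjusted p-values were deposited beside the FDR, which covers all bin pairs. Because these values hold no counts per library, the authors' fit was not repeated, and the total count per library is unknown. The self-test of the recovered number of tests was run on simulated data.

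The members and lists were chosen with earlier results of these data known. From FDR, rank and p-value, 138553 bin pairs had been tested, and the denominator degrees of freedom (46.5 to 47.2) were recovered from F and p-value. Intervals are 95% t intervals with the approximate SE. With 6 libraries, most of these degrees of freedom come from the spread that the authors' model shares across bin pairs, so the intervals do not rest on the libraries' own spread alone. Bins were rebuilt as the GATC nearest to each whole Mb, in bins with at least 50% known bases. Words were counted on both strands over 21 chromosomes. Every interaction of the bin is named. For each partner bin, genes of the family lists are given as counts with the first and last symbol, beside at most 4 others with a textbook function. *Zfp85os* and *Rsl1* were named after the values were seen. Python 3.11.15, numpy 2.4.6, scipy 1.17.1, pandas 2.3.3, matplotlib 3.10.9 and Biopython 1.88 were used.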

Additional observations from a re-analysis of the deposited data

How the results depend on the processing

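The number of interactions of the *Naip* and *Smn1* bin depended on the limits set. Of 8 interactions, 3 had a deposited FDR below 0.05 and 0 below 0.01, and 3 changed by at least 0.58 on the log2 scale. Merging touching partner bins left 5 runs, and merging across a gap of 1 bin left 4. All 8 were found by position, and 7 had at least 0 log2 CPM. The median log2 fold change was 0.73 over the 3 interactions below an FDR of 0.05 and 0.64 with runs averaged, against 0.54, and leaving out each partner bin in turn gave 0.54 to 0.54. The median distance was 30 to 32.5 Mb under the alternatives run. The median SE was 0.129 by a normal distribution, against 0.116. Repeated words of the bin made up 13.2% at 50 bases and 4.88% at 150 bases, with the same rank of 16. No paired analysis was possible because the table has no values per library, so the replicate block, DESeq2 and leaving out single libraries were not run.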
